A study of Mus musculus with 37 samples.

Results

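The second of the developmental steps sampled in control embryos, from 8-9 to 10-11 somites, was examined across all genes in Smchd1 wt tailbuds. The embryos were chosen by genotype and somite number from their labels: 6 embryos with 8 or 9 somites and 7 with 10 or 11 somites, together 13 of the 37 embryos of the series. Of 35542 genes in the count table, 15111 had enough counts in these 13 libraries to be tested. The study sequenced poly(A) RNA from tailbuds, dissected between E8 and E8.5, to ask what loss of maternal SMCHD1 does to Hox genes, and each embryo gave 1 library. Control embryos were C57BL/6 by Castaneus F1 animals that carried a floxed Smchd1 allele from the mother and an intact one from the father (Smchd1 fl/+), with no Cre transgene in the control cross. They therefore kept intact SMCHD1, which keeps selected genes silent on the X chromosome and at imprinted and other clusters. For comparison, 9 Smchd1 matdel embryos of the same somite numbers were used (4 with 8 or 9 somites, 5 with 10 or 11), whose mothers deleted Smchd1 in the oocyte with MMTV-Cre, so that both the oocyte supply and the maternal allele were missing. All 4 matdel embryos with 8 or 9 somites were female, and those with 10 or 11 were 2 females and 3 males. The wt embryos were 3 females and 3 males at 8-9 somites and 5 females and 2 males at 10-11 somites, and sex was a term in every fit unless stated. Somite number dates an embryo more finely than age in days, but 2 somite numbers were joined in each window.

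The tailbud is the growth zone at the posterior end of the embryo. Its neuromesodermal progenitors feed both the spinal cord and the presomitic mesoderm, from which somites bud off one after another under a Notch-driven clock, while WNT and FGF signals from the posterior hold the progenitors and retinoic acid from the formed somites opposes them. Hox genes are switched on in the order of their position in each cluster, low-numbered groups first and high-numbered groups last, and this order helps to set which type of vertebra is made. Cells also make their own cholesterol, for membranes and for the modification of hedgehog proteins, by a chain of enzymes whose genes are induced together by the factor SREBP2 when sterol runs low.

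Total counts per library were 9659259 to 80579115 (median 12530944) at 8-9 somites and 8477528 to 16943859 (median 14833318) at 10-11 somites. Levels are given as CPM, counts per 1000000 counts after TMM scaling. Before any comparison, the libraries were checked against marker genes of the tissue and of its neighbours. All 17 tailbud progenitor factors and all 20 presomitic mesoderm genes had counts. Their summed level was 1515 to 1969 CPM at 8-9 somites for the progenitor factors and 537 to 856 CPM for the presomitic genes. At 10-11 somites, 1 library stood apart: wt 10 somites replicate 1 had 951 CPM of progenitor factors, against 1525 to 2185 CPM in the other 6, and 362 CPM of presomitic genes, against 780 to 1030 CPM. The same library had the highest summed level of 18 visceral endoderm genes in its window, 4818 CPM against 77.5 to 816 CPM in the others, and of 20 primitive erythroid genes, 4072 CPM against 135 to 1788 CPM. At 8-9 somites the endoderm genes ranged from 151 to 5807 CPM (median 1507), with the highest value in wt 8 somites replicate 1, and the median at 10-11 somites was 346 CPM. The 18 endoderm genes were those of the 20-gene list without H19 and Cyp26a1, which are also known from other cells of the posterior embryo. Some results below are therefore also given without 1 or both of these libraries, or with the endoderm level as a covariate. A gene for which no such value is given may still lose its call in these fits, and the last section counts such losses.

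**Figure D1:**
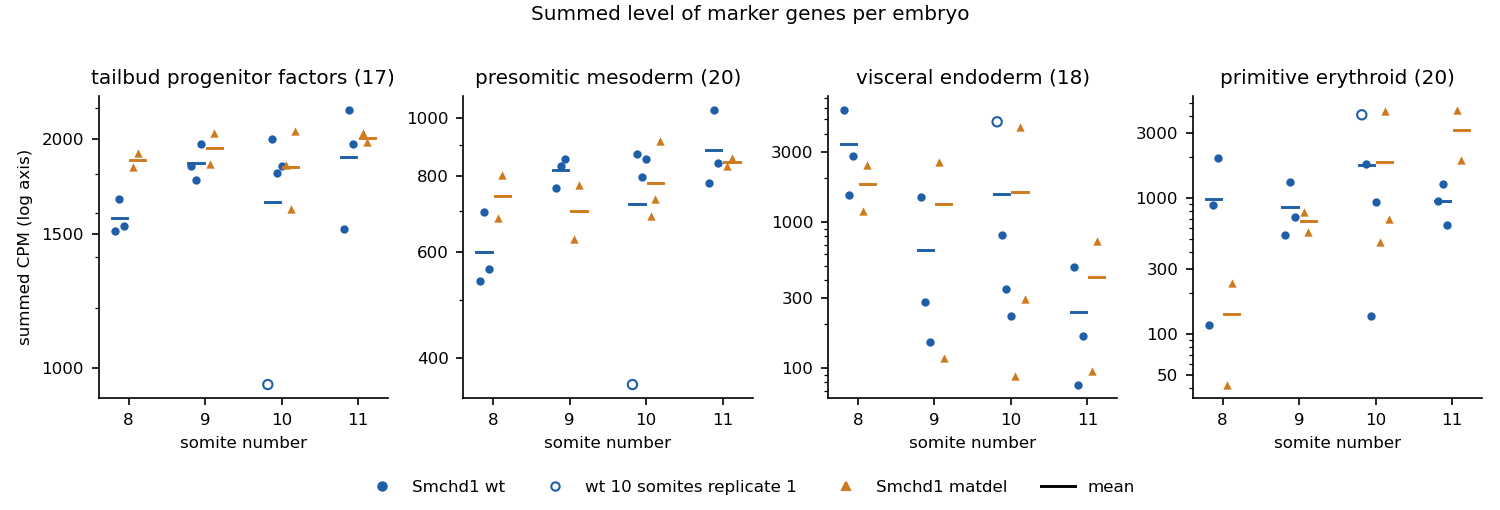
Summed level of marker genes (y axis, CPM, log scale) against somite number (x axis) for each embryo of both genotypes, in 4 panels for tailbud progenitor factors, presomitic mesoderm, visceral endoderm and primitive erythroid genes; circles are wt embryos, triangles matdel embryos and bars the means. The open circle, wt 10 somites replicate 1, is the lowest embryo in the first 2 panels (951 and 362 CPM) and the highest wt embryo with 10 or 11 somites in the other 2 (4818 and 4072 CPM).

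Between 8-9 and 10-11 somites no single gene passed the test. By edgeR's quasi-likelihood test 0 of 15111 genes were called at an adjusted p of 0.05 (0% of genes), the lowest adjusted p was 0.9996, and 471 genes (3.12%) had an unadjusted p under 0.05, 211 of them higher at 10-11 somites (1.4%) and 260 lower (1.72%). DESeq2 and limma-voom also called 0 genes, with 531 and 473 genes at an unadjusted p under 0.05. The 95% interval of the log2 fold change lay between -1 and 1, a 2-fold change either way, for 13415 genes (88.8%), and the median distance from the estimate to the end of its interval was 0.31 on the log2 scale, or 1.24-fold. In bulk tissue, fewer cells of a type and less RNA per cell cannot be told apart, which applies to every value given here. Only 6 genes (0.0397%) had windows that did not overlap, with Atg10 and Tnfaip8 higher in all 7 later embryos (0.0132%) and Scnn1a, Mief1, Wasf2 and 5730596B20Rik lower in all 7 (0.0265%). All but Atg10, Tnfaip8 and Scnn1a were named here after their values were seen. With so few embryos, some of 15111 genes have no overlap by chance alone, and how many was not computed.

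Somite number was then used as a number instead of 2 windows. The slope per somite in the 13 wt embryos again gave 0 calls by edgeR, with 1096 genes (7.14%) at an unadjusted p under 0.05. Without wt 10 somites replicate 1, the library that stood apart, the same fit called 150 of 15713 genes (0.955%), 26 rising and 124 falling (0.789% falling). In all 22 embryos of 8 to 11 somites, a fit chosen after the data were seen, with genotype and sex as terms, 241 of 15672 genes were called (1.54%), 128 rising (0.817%) and 113 falling (0.721%), and 2365 genes (15.1%) had an unadjusted p under 0.05. This fit called 65 genes without wt 8 somites replicate 1 and 750 without wt 10 somites replicate 1. Of the 68 named genes that it called, 28 were called without wt 8 somites replicate 1 and 47 without both libraries. Of the 150 genes called in the wt slope without wt 10 somites replicate 1, 41 were among the 241 called in all 22 embryos. The 22 embryos include the 13 wt embryos, so the slope over all 22 is not an independent repeat of the comparison of windows. It is used below as the test with more embryos and finer stages, and a gene is said to rise or fall only where it was called there. Slopes are given as log2 per somite ± SE, with edgeR's adjusted p after them, in brackets where several follow each other. With the summed endoderm level as a further term, also chosen after the data were seen, the number called was 9: Fdps and the overlapping Gm43738, Acat2, Insig1, Msmo1, Idh1, Aopep and Hoxc9 rising, and Cttnbp2 falling. No other gene described below as rising or falling was called with that term. The endoderm level itself went down with somite number: all 18 of its genes had negative slopes in the 22 embryos, with a median of -0.93 per somite. A call lost with that term therefore cannot show whether a gene follows the endoderm level or the stage. The interaction of somite number and genotype called 0 of 15923 genes by edgeR, DESeq2 or limma-voom, with 291 (1.83%), 316 and 327 genes at an unadjusted p under 0.05.

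**Figure D2:**
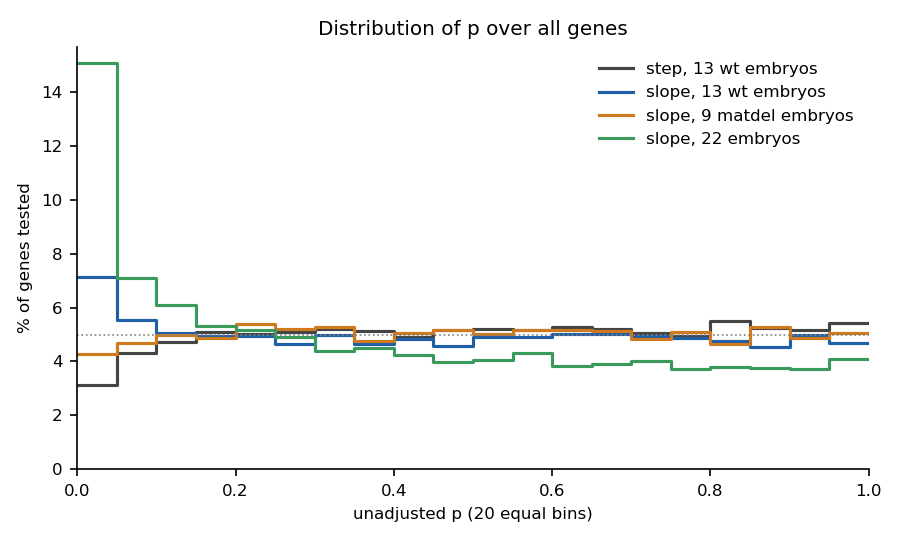
Share of genes tested (y axis, %) in each of 20 equal bins of unadjusted p (x axis) for 4 fits; the dotted line at 5% is an even spread. The windows in 13 wt embryos hold 3.12% of genes in the lowest bin, below the line, the slope in 13 wt embryos 7.14% and the slope in 22 embryos 15.1%.

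The 12 genes higher and 12 lower with the smallest p in the windows are described next, though none passed. They are the extremes of 15111 tests, so their fold changes do not give the size of the step. Their slopes over 22 embryos include the same 13 wt embryos that picked them. Idh1, the cytosolic isocitrate dehydrogenase that supplies NADPH (chr1:65158616-65186500, GRCm38), had lowest, median and highest levels of 56.6, 64.6 and 84.2 CPM at 8-9 somites and 68.9, 96.0 and 118 CPM at 10-11 somites. All but 1 of the later embryos lay above every earlier one. The log2 fold change was 0.47 ± 0.12 (SE), it was 0.60 ± 0.16 in matdel embryos, and the slope in 22 embryos was 0.26 ± 0.03 per somite (edgeR, adjusted p 0.000196). Atg10, an enzyme of autophagosome formation, measured 2.35, 2.73 and 3.55 CPM at 8-9 somites and 3.65, 4.23 and 5.29 CPM at 10-11 somites, with no overlap, and differed by 0.57 ± 0.14, but its slope in 22 embryos was not called (adjusted p 0.123). Tnfaip8, a regulator of cell death, measured 27.5, 30.4 and 32.8 CPM at 8-9 somites and 32.8, 37.5 and 48.1 CPM at 10-11 somites. The windows touch only after rounding, the log2 fold change was 0.34 ± 0.10 and the slope was not called (adjusted p 0.21).

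Of the other genes on the higher side, Qpct, which cyclises N-terminal glutamine, rose with somite number at 0.32 ± 0.07 per somite (adjusted p 0.0176), Mpzl2, a cell adhesion protein, at 0.18 ± 0.04 (0.0346) and Jakmip2 at 0.24 ± 0.06 (0.0451). Mpzl2 shares exon sequence with Gm48840, so its value is uncertain. Tmem206, Tmem100, Sat1, Arntl2, Ifngr2 and Rasl11b were not called in the slope. Arntl2, a clock transcription factor, was higher by 0.88 ± 0.25 in wt embryos and differed by -1.29 ± 0.48 in matdel embryos, the opposite direction. The difference between genotypes had an adjusted p of 0.998 for Arntl2 by edgeR and was not called for any gene.

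Among the genes on the lower side, Wnt9b, a WNT ligand of the nephric duct, had lowest, median and highest levels of 0.671, 1.85 and 2.89 CPM at 8-9 somites and 0.410, 0.777 and 1.18 CPM at 10-11 somites. The highest later embryo lay below the median of the earlier ones, and 2 of the 7 lay below all of them. Its log2 fold change was -1.28 ± 0.33, and it fell with somite number at -0.50 ± 0.13 per somite (adjusted p 0.0463). Ror1, a receptor for WNT5A, and Scnn1a, a subunit of the epithelial sodium channel, also fell, at -0.28 ± 0.07 (0.0308) and -0.37 ± 0.09 (0.0451). Cyfip2, a member of the actin-regulating WAVE complex, fell at -0.33 ± 0.06 (0.00472), the kinesin Kifc2 at -0.41 ± 0.06 (0.000472), Nid2, a basement membrane nidogen, at -0.12 ± 0.03 (0.0409) and Tcerg1l at -0.45 ± 0.10 (0.0258). Kifc2 shares exon sequence with Cyhr1 and Nid2 with Rtraf. Reln, Ina, Creb3l4, Ildr1 and Nedd4l were not called in the slope. Reln, the secreted guide of migrating neurons, and Creb3l4 differed by -0.79 ± 0.22 and -1.02 ± 0.29 in wt embryos and by 0.39 ± 0.44 and 0.55 ± 0.46 in matdel embryos.

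The genes of cholesterol synthesis were higher at 10-11 somites almost throughout. Of 25 listed genes, 24 were higher at 10-11 somites (48.2% of all genes were), 10 of them at an unadjusted p under 0.05 against 3.12% of all genes, and their median log2 fold change was 0.28 against -0.01 over all genes. The 10 became 3 without wt 11 somites replicate 1, 5 without wt 8 somites replicate 3 and 15 without wt 9 somites replicate 3. In the slope over 22 embryos all 25 were positive, 14 were called (1.54% of all genes were) and the median slope was 0.21 per somite. The list was written with earlier results of these data known, so it is a description and not independent evidence. In the 9 matdel embryos, which the wt comparison did not use, 24 of 25 were higher at 10-11 somites, 18 at an unadjusted p under 0.05 (3.6% of all genes), and the median log2 fold change was 0.54. The same limit of the list holds there, and all 3 matdel males were in the later window.

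Msmo1, the sterol C4-methyl oxidase, had lowest, median and highest levels of 33.7, 57.1 and 93.3 CPM at 8-9 somites and 56.3, 99.8 and 125 CPM at 10-11 somites. Of the later embryos 4, among them all 3 with 11 somites, lay above every earlier one, and the windows overlapped between 56.3 and 93.3 CPM. Its log2 fold change was 0.60 ± 0.23 and its slope 0.40 ± 0.06 per somite (adjusted p 0.00107), with 0.89 ± 0.26 between the windows in matdel embryos. Insig1, the sterol-sensing retention protein that is itself an SREBP target, had levels of 20.3, 40.9 and 62.7 CPM at 8-9 somites and 49.0, 62.2 and 85.5 CPM at 10-11 somites. It rose at 0.38 ± 0.06 per somite (0.000959), and its lowest later embryo exceeded the median of the earlier ones.

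At the start of the chain, Acat2, which joins 2 acetyl-CoA units, measured 74.7, 88.0 and 110.1 CPM at 8-9 somites and 90.2, 116 and 142 CPM at 10-11 somites. Of the later embryos, 4 lay above every earlier one. Its log2 fold change was 0.32 ± 0.10, with a slope of 0.20 ± 0.03 (0.000257). Hmgcs1, which makes HMG-CoA, measured 135, 251 and 347 CPM at 8-9 somites and 184, 345 and 446 CPM at 10-11 somites. The windows overlapped, with a log2 fold change of 0.35 ± 0.21, and Hmgcs1 rose along the slope at 0.28 ± 0.06 (0.0175). For the isoprenoid enzymes, Idi1 rose at 0.35 ± 0.05 (0.00107) with levels of 21.8, 40.8 and 57.5 CPM at 8-9 somites and 40.2, 59.1 and 78.5 CPM at 10-11 somites, and Fdps at 0.34 ± 0.04 (5.75e-05) with 49.9, 68.8 and 104 CPM at 8-9 somites and 75.9, 103 and 134 CPM at 10-11 somites. Fdps shares exon sequence with Gm43738, so its reads cannot be told from those of that gene.

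The squalene and sterol enzymes followed. Fdft1, Sqle and Lss, which make squalene, oxidise it and close the rings, rose at 0.22 ± 0.03 (0.00107), 0.24 ± 0.04 (0.000959) and 0.24 ± 0.04 (0.00534) per somite. Cyp51, Nsdhl, Sc5d and Dhcr7, which act on the sterol nucleus after that, rose at 0.29 ± 0.05 (0.00231), 0.22 ± 0.04 (0.0116), 0.22 ± 0.04 (0.00547) and 0.21 ± 0.04 (0.00722). Exons of Fdft1 overlap Ctsb, and those of Cyp51 overlap Akap9. The other 11 members were not called. They include Srebf2, which encodes the regulator itself (0.12 ± 0.03, adjusted p 0.0642) and Tm7sf2, a sterol reductase, which was the 1 member lower at 10-11 somites (-0.03 ± 0.15). Scd1, a desaturase outside the list and named after its values were seen, rose at 0.20 ± 0.04 (0.0165).

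Single embryos weighed on the group. Within 8-9 somites, wt 8 somites replicate 1 was lowest for 17 of the 25 genes and wt 9 somites replicate 3 highest for 18. Within 10-11 somites, wt 10 somites replicate 1 was lowest for 13 and wt 11 somites replicate 3 highest for 17. The number of members called in the slope was 12 without wt 8 somites replicate 1, 18 without wt 10 somites replicate 1, 14 without both and 4 (Fdps, Acat2, Insig1 and Msmo1) with the endoderm level as a term. All 25 slopes were positive in every one of the 36 settings tried. The part of the endoderm level in the remaining calls was not tested beyond this term.

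**Figure D3:**
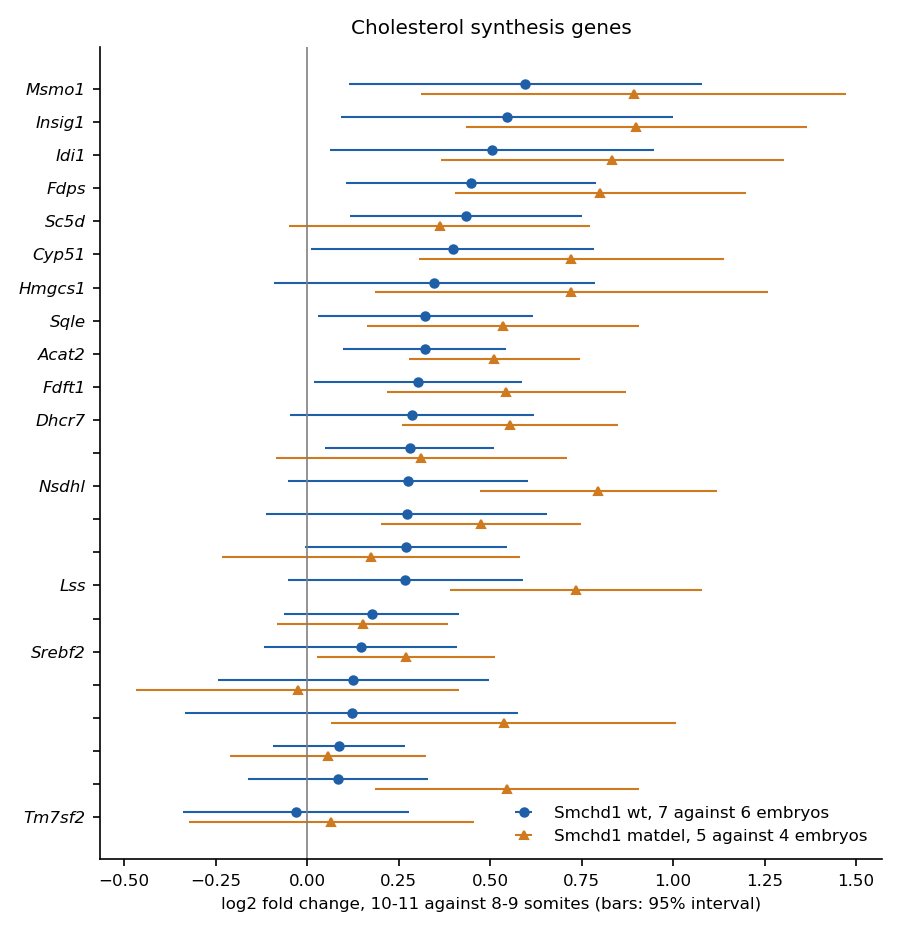
Log2 fold change of 10-11 against 8-9 somites (x axis; bars are 95% intervals) for 23 of the 25 cholesterol synthesis genes (y axis; names are given for those described in the text), with wt embryos as circles and matdel embryos as triangles. All wt points but that of Tm7sf2 lie to the right of 0, and the intervals of 10 of them exclude 0.

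Promoters of members are shown because genes of this pathway are known targets of SREBP2, which acts through a sterol response element beside CCAAT boxes. RefSeq promoter windows (GRCm38.p6, 250 bases before to 50 bases after the start, 5′ to 3′ on the gene's strand) were found for 17 of the 25 genes, in 20 windows. Capitals mark 5-base CCAAT boxes (CCAAT or its reverse complement ATTGG) and the 9-base sterol element TCACNCCAC, searched on both strands. The windows of Hmgcs1 (chr13:119690101-119690400, plus strand), Idi1 (chr13:8885356-8885655, plus strand), Msmo1 (chr8:64733529-64733828, minus strand) and Acat2 (chr17:12960676-12960975, minus strand) read:
Hmgcs1: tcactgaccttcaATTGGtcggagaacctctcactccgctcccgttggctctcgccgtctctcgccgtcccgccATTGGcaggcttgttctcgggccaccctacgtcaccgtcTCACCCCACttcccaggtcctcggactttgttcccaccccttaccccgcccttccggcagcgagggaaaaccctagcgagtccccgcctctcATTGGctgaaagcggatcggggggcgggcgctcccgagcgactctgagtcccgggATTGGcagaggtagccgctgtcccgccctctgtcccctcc
Idi1: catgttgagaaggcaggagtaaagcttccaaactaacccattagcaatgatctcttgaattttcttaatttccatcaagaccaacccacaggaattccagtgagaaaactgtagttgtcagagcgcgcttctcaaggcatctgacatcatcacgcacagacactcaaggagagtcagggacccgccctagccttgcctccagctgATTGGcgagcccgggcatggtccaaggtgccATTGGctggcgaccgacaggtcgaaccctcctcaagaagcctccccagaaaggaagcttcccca
Msmo1: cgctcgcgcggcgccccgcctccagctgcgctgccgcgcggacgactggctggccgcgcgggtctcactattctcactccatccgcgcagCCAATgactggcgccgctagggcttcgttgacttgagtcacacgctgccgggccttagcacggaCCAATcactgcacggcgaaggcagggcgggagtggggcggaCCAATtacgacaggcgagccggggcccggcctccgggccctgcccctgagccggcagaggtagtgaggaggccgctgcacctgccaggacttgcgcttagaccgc
Acat2: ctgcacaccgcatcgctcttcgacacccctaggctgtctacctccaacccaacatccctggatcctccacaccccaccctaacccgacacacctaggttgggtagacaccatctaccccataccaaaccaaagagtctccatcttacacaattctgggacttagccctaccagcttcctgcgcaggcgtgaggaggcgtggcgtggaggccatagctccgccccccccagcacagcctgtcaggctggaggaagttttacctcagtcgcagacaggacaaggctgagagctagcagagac

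Hmgcs1 has 4 CCAAT boxes and the only sterol element found among the 17 genes, Idi1 has 2 CCAAT boxes, Msmo1 has 3 and Acat2 has neither motif. A CCAAT box was present in 16 of the 17 genes (94.1%), against 41.1% of all genes with a searched window. It was in 16 of 20 windows (80.0%), against 37.4% of the 32851 searched, which leave out 1 chromosome. Among genes tested between the windows of somite number, 43.0% had a CCAAT box. The sterol element was in 1 of the 17 genes (5.88%), against 1.44% of all genes with a searched window. Of the 10 members called in the slope that had a window, 9 had a CCAAT box. These matches describe the letters of the windows only.

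Hox genes are given by paralogue group, from anterior to posterior. None of the 12 genes of groups 1 to 4 was called in the slope or had an unadjusted p under 0.05 between the windows, and 6 were higher at 10-11 somites. In the slope 10 of the 12 were positive, against 11 of 15 in groups 5 to 9 and 6 of 8 in groups 10 to 13. The median slopes were 0.047, 0.11 and 0.17 per somite. In groups 1 to 4, 2 positive slopes and 1 negative slope had an unadjusted p under 0.05, against 15.1% of all genes in either direction. Of the 15 genes of groups 5 to 9, 11 were higher, 6 had an unadjusted p under 0.05 (5 higher, and Hoxb8 lower; 3.12% of all genes) and 7 were called in the slope, all rising (1.54% of all genes). The 6 at an unadjusted p under 0.05 became 0 without wt 11 somites replicate 1, 1 without wt 8 somites replicate 3, and 2 without wt 8 somites replicate 1 or without wt 11 somites replicate 2 or 3. Of the 8 tested genes of groups 10 to 13, 4 were higher and 1, Hoxc10, was called.

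Hoxc9 (chr15:102976439-102985099) had lowest, median and highest levels of 14.7, 30.0 and 55.6 CPM at 8-9 somites and 32.2, 55.6 and 73.6 CPM at 10-11 somites. All 3 embryos with 8 somites were below all embryos with 10 or 11 somites, while the windows overlapped through those with 9. Its log2 fold change was 0.62 ± 0.25 and its slope 0.49 ± 0.07 per somite (adjusted p 0.00107). Hoxc10 (chr15:102966796-102971893), of the next group in the same cluster, measured 2.62, 5.62 and 12.4 CPM at 8-9 somites and 5.58, 12.8 and 20.4 CPM at 10-11 somites, with 5 of the 7 later embryos above all earlier ones. It had the largest fold change among the 35 tested Hox genes, 0.99 ± 0.33, and rose at 0.54 ± 0.14 (0.048). It was called in 17 of the 35 alternatives, and was not called without sex, in females or with the replicate block. Leaving out 1 embryo lost the call for 13 of the 22 embryos of both genotypes, all 3 wt embryos with 11 somites among them. Exons of Hoxc10 overlap those of Hoxc5, which had more counts, so part of its reads may belong there.

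In the same cluster Hoxc6 and Hoxc8 rose at 0.22 ± 0.05 (0.0284) and 0.20 ± 0.04 (0.0276). In the Hoxa cluster Hoxa6 rose at 0.44 ± 0.09 (0.0106) and Hoxa9 at 0.29 ± 0.05 (0.00453), and in the Hoxd cluster Hoxd8 at 0.35 ± 0.06 (0.00272) and Hoxd9 at 0.23 ± 0.05 (0.0168). Hoxa9 measured 74.6, 134 and 183 CPM at 8-9 somites and 141, 195 and 227 CPM at 10-11 somites. No gene of the Hoxb cluster was called. Hoxb8 had levels of 79.9, 94.1 and 108 CPM at 8-9 somites and 70.2, 84.7 and 92.0 CPM at 10-11 somites, and Hoxb9 245, 342 and 392 CPM at 8-9 somites and 228, 318 and 386 CPM at 10-11 somites. Their slopes were -0.06 ± 0.03 (0.306) and -0.07 ± 0.04 (0.506), and whether they differ from those of Hoxc9 or Hoxa9 was not tested. On the authors' length-corrected scale Hoxb9 was the highest of the 4 group 9 genes, at a mean log2 RPKM of 6.96 ± 0.22 (SD, n = 6) at 8-9 somites and 6.86 ± 0.25 (n = 7) at 10-11 somites. Hoxc9 was the lowest of the 4, at 3.51 ± 0.71 and 4.34 ± 0.47.

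The most posterior genes were low and scattered. Hoxd13 measured 2.91, 8.38 and 9.97 CPM at 8-9 somites and 4.26, 5.23 and 11.95 CPM at 10-11 somites and Hoxa13 1.77, 3.29 and 4.03 CPM at 8-9 somites and 1.398, 2.24 and 5.38 CPM at 10-11 somites, and the windows of both overlapped. Their log2 fold changes were -0.16 ± 0.30 and -0.02 ± 0.31. The calls in groups 5 to 9 fell from 7 to 4 without wt 8 somites replicate 1 and to 1, Hoxc9, with the endoderm level as a term. For each of the 7 called genes wt 10 somites replicate 1 was the lowest later embryo, and for all but Hoxa6 wt 8 somites replicate 1 was the lowest earlier one.

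**Figure D4:**
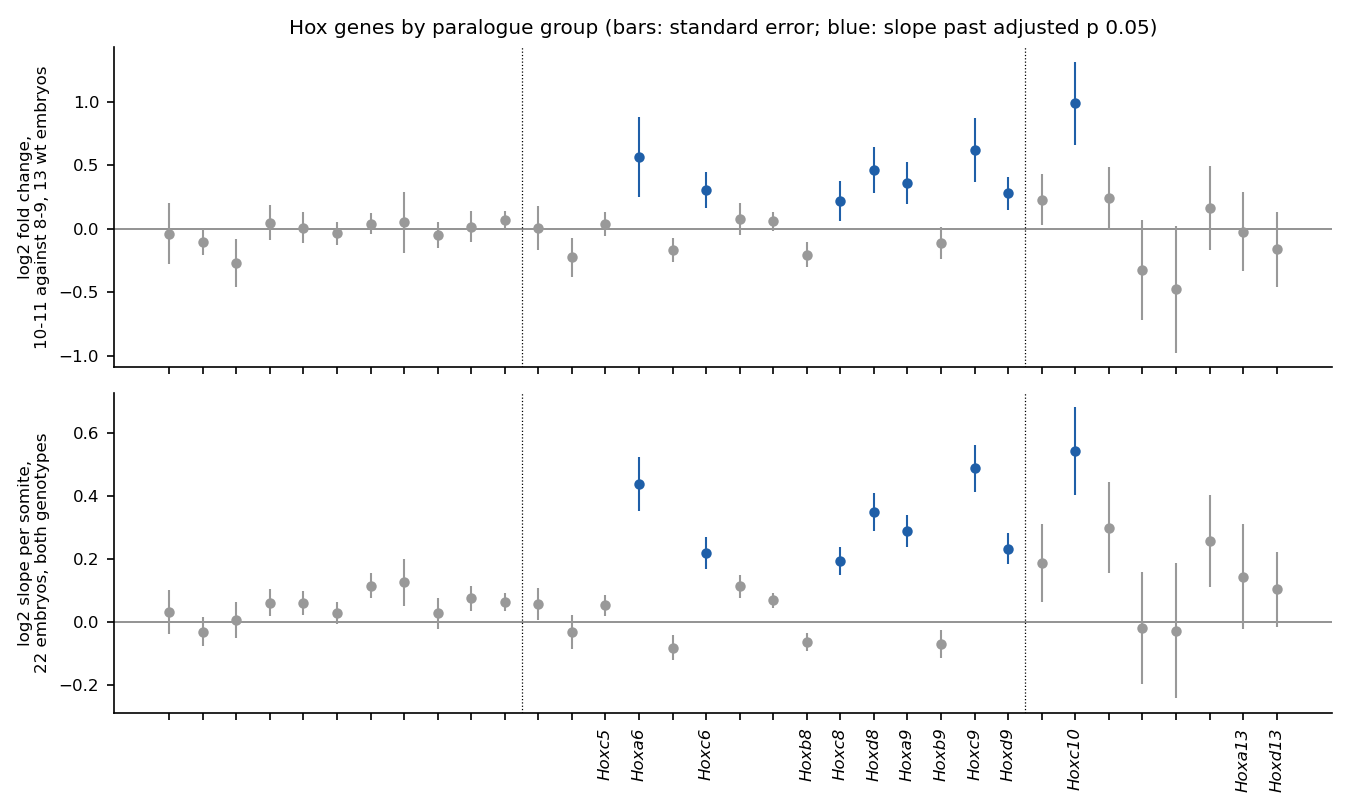
The 34 Hox genes shown, ordered by paralogue group (x axis; names are given for those described in the text; dotted lines divide groups 1 to 4, 5 to 9 and 10 to 13), with the log2 fold change of 10-11 against 8-9 somites in 13 wt embryos above and the log2 slope per somite in 22 embryos below; bars are standard errors and blue marks the 8 genes called in the slope. No point of groups 1 to 4 is blue, and 7 of the blue points are in groups 5 to 9.

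Among genes that time the passage from trunk to tail, Nr6a1 and Cdx1 fell and Gdf11 rose. Of 16 tested Cdx, Lin28 and Gdf11 timing genes, 3 were called in the slope (1.54% of all genes). Nr6a1, a nuclear receptor of trunk identity, had lowest, median and highest levels of 458, 574 and 778 CPM at 8-9 somites and 241, 427 and 574 CPM at 10-11 somites. Of the 7 later embryos, 6 lay below all earlier ones, and the lowest was wt 10 somites replicate 1. Its log2 fold change was -0.51 ± 0.17, or -0.35 ± 0.13 without that library, and it fell at -0.24 ± 0.05 per somite (0.0236).

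Cdx1, a caudal-type activator of Hox genes, measured 44.4, 67.8 and 114 CPM at 8-9 somites and 31.1, 41.5 and 76.9 CPM at 10-11 somites and fell at -0.40 ± 0.08 (0.0163), with 4 of 7 later embryos below all earlier ones. Cdx2, its more abundant relative, measured 275, 335 and 389.6 CPM at 8-9 somites and 224, 349 and 426 CPM at 10-11 somites and differed by -0.09 ± 0.11. Gdf11, the TGF-beta family ligand that starts tail formation, measured 43.0, 77.5 and 109 CPM at 8-9 somites and 58.5, 108 and 162 CPM at 10-11 somites and rose at 0.26 ± 0.05 (0.0106). All 3 genes were called without wt 8 somites replicate 1 and wt 10 somites replicate 1 together, and none of the 3 with the endoderm level as a term.

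**Figure D5:**
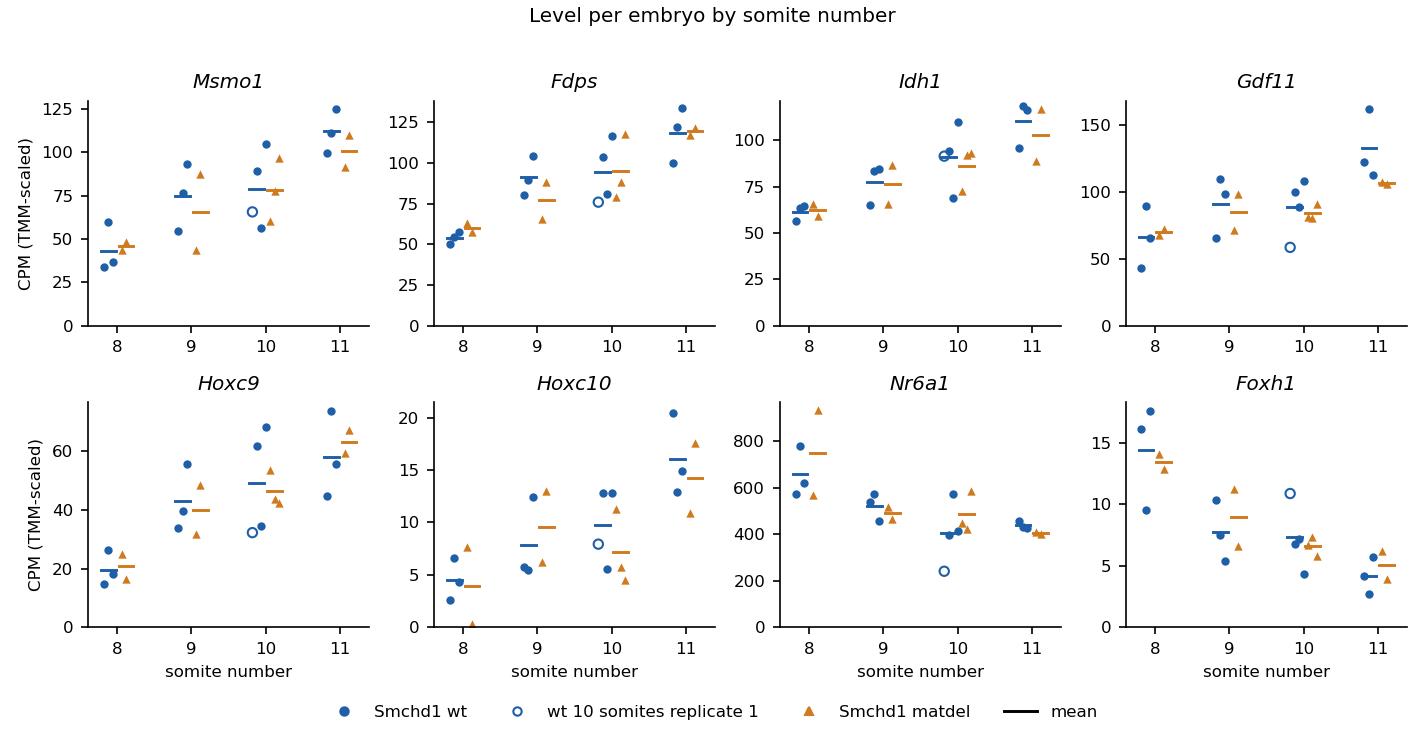
Level (y axis, CPM) of 8 genes in each embryo against somite number (x axis); circles are wt embryos, triangles matdel embryos, short bars the mean per stage, and the open circle wt 10 somites replicate 1. Msmo1, Fdps, Idh1, Gdf11, Hoxc9 and Hoxc10 are higher and Nr6a1 and Foxh1 lower toward 11 somites in both genotypes. The slope of each of the 8 genes was called in the 22 embryos together, while 0 genes were called in the slope of the 13 wt embryos.

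Most node and left-right genes were lower at 10-11 somites, though few passed. Of 15 tested node, notochord and left-right genes, 12 were lower between the windows, 2 of them at an unadjusted p under 0.05 (1.72% of all genes). In the slope 2 of 16 were called (1.54% of all genes). Cfc1, the Nodal co-receptor Cryptic, had lowest, median and highest levels of 0.747, 4.02 and 6.95 CPM at 8-9 somites and 0.789, 1.502 and 2.96 CPM at 10-11 somites, and the highest later embryo lay below the median of the earlier ones. It fell at -0.69 ± 0.10 per somite (0.000959). The highest embryo of each window was the library with the most visceral endoderm RNA, and Cfc1 was not called with the endoderm level as a term. Gli1, a transcription factor and readout of hedgehog signalling, measured 26.4, 32.0 and 37.0 CPM at 8-9 somites and 19.9, 24.3 and 35.5 CPM at 10-11 somites and fell at -0.20 ± 0.05 (0.0269).

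Foxh1, the DNA-binding partner of SMADs below Nodal, was outside the list and named after its values were seen. It measured 5.39, 9.98 and 17.6 CPM at 8-9 somites and 2.68, 5.75 and 10.9 CPM at 10-11 somites, fell at -0.53 ± 0.07 per somite (0.000603), and its log2 fold change was -0.83 ± 0.32 in wt and -1.21 ± 0.31 in matdel embryos. Nrp1, a receptor for semaphorins and VEGF named in the same way, fell at -0.22 ± 0.04 (0.0103). Ptch1, a hedgehog receptor and target, was not called (-0.09 ± 0.04, adjusted p 0.238).

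In the signalling pathways of the growth zone few members were called in the slope, where 1.54% of all genes were. Of 25 tested WNT genes, 7 were higher and 18 lower between the windows. Of these, 0 higher and 2 lower had an unadjusted p under 0.05 (1.4% and 1.72% of all genes). Without wt 10 somites replicate 1 they were 13 higher and 12 lower. In the slope Dkk1, a secreted WNT inhibitor, rose at 0.31 ± 0.08 (0.0398), Nkd2, a feedback inhibitor inside the cell, rose at 0.20 ± 0.05 (0.0493), and Cdx1, also listed as a WNT target, fell. Dkk1 measured 24.5, 29.8 and 49.2 CPM at 8-9 somites and 17.3, 53.7 and 82.3 CPM at 10-11 somites. Of the later embryos 2 were below all earlier ones, wt 10 somites replicate 1 the lowest, and 4 were above all of them. Notum, the WNT deacylase, differed by -0.45 ± 0.17 between the windows and was not called in the slope (0.0632), and it shares exon sequence with Notumos.

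Of 18 Notch and segmentation clock genes 1 was called (1.54% of all genes were), Nrarp, a feedback inhibitor of Notch, which rose at 0.30 ± 0.07 (0.0222) with levels of 35.3, 74.6 and 119 CPM at 8-9 somites and 57.1, 94.4 and 184 CPM at 10-11 somites. Its reads overlap those of Gm38287. Of 22 FGF ligands and response genes 1 was called (against the same 1.54%), Shisa3, which retains receptors inside the cell and rose at 0.47 ± 0.11 (0.0258), with exons shared with Atp8a1. Among 17 retinoic acid genes 3 were called (1.54% of all genes). Crabp2, which carries retinoic acid to its receptors, measured 82.3, 106 and 128 CPM at 8-9 somites and 114, 131 and 204 CPM at 10-11 somites and rose at 0.19 ± 0.04 (0.022), Cyp26a1, which clears it, rose at 0.22 ± 0.05 (0.0398), and the receptor Rxrg fell at -0.57 ± 0.13 (0.0229). None of 22 BMP and TGF-beta genes was called in the slope.

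Genes that mark the tailbud itself showed no called change. None of the 16 tested progenitor factors was called in the slope or in the windows. Between the windows 5 were higher and 11 lower, with 0 and 2 at an unadjusted p under 0.05 (1.4% and 1.72% of all genes). Without wt 10 somites replicate 1 the split turned to 10 higher and 6 lower. The 2 lower ones were Tbx3, a T-box factor, at 47.5, 60.9 and 64.2 CPM at 8-9 somites and 17.8, 42.1 and 47.6 CPM at 10-11 somites (log2 fold change -0.52 ± 0.18), and Fst, the activin antagonist, at 7.79, 10.1 and 23.5 CPM at 8-9 somites and 6.16, 7.71 and 9.63 CPM at 10-11 somites (-0.53 ± 0.23). For Tbx3, 6 of 7 later embryos lay below all earlier ones, and for Fst 5 of 7 did. Of 15 presomitic genes in the slope only Dkk1 was called (1.54% of all genes were), and 0 of 8 somite factors were. Dll1, the Notch ligand of presomitic mesoderm, measured 63.9, 107 and 134 CPM at 8-9 somites and 32.4, 126 and 177 CPM at 10-11 somites, and its lowest later value was in wt 10 somites replicate 1.

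Neural and other lineages were sampled by further lists, to be read beside the 1.54% of all genes called in the slope. Of 23 neural tube genes in the slope, Sox1, an early neural factor, rose at 0.68 ± 0.17 (0.037) and the neurofilaments Nefm and Nefl, which overlap each other in the counts, fell at -0.26 ± 0.06 (0.0284) and -0.21 ± 0.05 (0.0465). Sox1 was low throughout, at 0.103, 0.558 and 1.33 CPM at 8-9 somites and 0.451, 1.153 and 2.03 CPM at 10-11 somites. None of 8 neural crest genes was called. Emcn, an endothelial sialomucin, rose at 0.49 ± 0.12 (0.033) as the 1 of 22 endothelial genes, with 1.28, 2.64 and 4.11 CPM at 8-9 somites and 2.13, 4.86 and 10.2 CPM at 10-11 somites. Pou5f1, the pluripotency factor OCT4, fell at -0.50 ± 0.12 (0.0306) as the 1 of 12 germ cell and pluripotency genes, and its levels were 5.12, 12.2 and 24.6 CPM at 8-9 somites and 2.37, 6.21 and 17.9 CPM at 10-11 somites, with the highest value of each window in wt 8 somites replicate 1 and wt 10 somites replicate 1.

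Epithelial genes fell where they were called. Cdh1, E-cadherin, and Podxl, an apical sialomucin, fell at -0.23 ± 0.05 (0.0236) and -0.25 ± 0.05 (0.0165), the 2 called of 19 epithelial and mesenchymal genes (1.54% of all genes). Of 18 gut endoderm genes 3 fell (0.721% of all genes did): Cdh1, Trh, the thyrotropin-releasing hormone precursor, at -0.59 ± 0.11 (0.00696), and Nepn, a secreted proteoglycan of the gut tube, at -0.87 ± 0.21 (0.0321). Trh measured 3.52, 4.30 and 10.4 CPM at 8-9 somites and 0.8286, 2.53 and 5.46 CPM at 10-11 somites, and 6 of 7 later embryos lay below all earlier ones. The highest earlier value of Cdh1, Podxl, Trh and Nepn was in each case in wt 8 somites replicate 1, the library with the most visceral endoderm RNA. None of the 4 was called with the endoderm level as a term. Whether their levels follow the endoderm level from embryo to embryo was not tested.

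The visceral endoderm genes themselves were lower at 10-11 somites in the median and were not called between the windows. H19 and Cyp26a1 were the 2 members of the 20-gene list that were higher at 10-11 somites, and with them the median log2 was -1.01. The 18 without them were all lower, by a median log2 of -1.04, and 0 had an unadjusted p under 0.05. Without wt 10 somites replicate 1 the median was -2.11 and 16 of 18 had an unadjusted p under 0.05, against 5.32% of all genes, and in the slope without that library 9 of the 18 were called (0.955% of all genes). The slope over 22 embryos called 0 of the 18. All 18 slopes there were negative at an unadjusted p under 0.05, against 15.1% of all genes in either direction, with a median of -0.93 per somite. In the slope of the 13 wt embryos all 18 were also negative at that threshold, against 7.14% of all genes, with a median of -0.95. The wt slope without wt 8 somites replicate 1 called 0 genes in all. Afp, the alpha-fetoprotein secreted by this layer, measured 9.60, 228 and 787 CPM at 8-9 somites and 1.64, 47.8 and 506 CPM at 10-11 somites, and Apoe, an apolipoprotein, 25.1, 193 and 772 CPM at 8-9 somites and 15.9, 49.6 and 861 CPM at 10-11 somites. The windows overlapped for both genes, with the highest values in wt 8 somites replicate 1 and wt 10 somites replicate 1. Both genes were named after their values were seen.

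Primitive erythroid genes were not called in any of these fits: 15 of 20 were higher at 10-11 somites and 4 of 20 without wt 10 somites replicate 1. Hbb-bh1, an embryonic beta-like globin, measured 32.6, 382 and 1093 CPM at 8-9 somites and 55.6, 439 and 2317 CPM at 10-11 somites. Of 24 S phase genes, 25 G2 and M phase genes, 30 Polycomb genes and 16 immediate early genes, 0 had an unadjusted p under 0.05 between the windows and 0 were called in the slope. The counts that follow are to be read beside the 1.54% of all genes called in the slope. In the remaining lists, Has2, a hyaluronan synthase, rose at 0.18 ± 0.05 (0.0499) as the 1 of 30 matrix genes, Pgk1 of glycolysis rose at 0.13 ± 0.03 (0.022) while the glucose transporter Slc2a3 fell at -0.17 ± 0.04 (0.0158), the 2 of 24 glycolysis genes, and Btg2, an antiproliferative p53 target, rose at 0.33 ± 0.05 (0.00107), the 1 of 22 p53 targets. No member of the surface ectoderm list but Cdh1 (1 of 19) and no member of the intermediate mesoderm list but Wnt9b (1 of 11) was called, and none of 21 allantois genes was.

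Further genes called in the slope were named after their values were seen. Aopep, an aminopeptidase whose exons overlap Fancc, rose at 0.36 ± 0.05 (0.000289), and S1pr3, a sphingosine-1-phosphate receptor, at 0.43 ± 0.08 (0.00479). Ebf2, a helix-loop-helix factor, rose at 1.34 ± 0.25 (0.00568) from near 0, with 0, 0.079 and 1.76 CPM at 8-9 somites and 0, 1.13 and 3.22 CPM at 10-11 somites. Gas6, a ligand of TAM receptors, fell at -0.41 ± 0.08 (0.0116). Smchd1 itself, which the wt embryos have intact, measured 138, 156 and 204 CPM at 8-9 somites and 105, 155 and 184 CPM at 10-11 somites and differed by -0.08 ± 0.12. Among the genes named above, exons also overlap those of another gene for Tm7sf2 (Vps51), Hmgcs1 (Gm48342), Cfc1 (Prss40), Pou5f1 (Gm19553), Dll1 (A930024N18Rik) and Ebf2 (Gm10860), so part of their counts may belong to the neighbour.

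Lastly, the step was set beside the same step in matdel embryos and the step before it in wt embryos. In matdel embryos 0 of 15721 genes were called by edgeR (566 genes, 3.6%, at an unadjusted p under 0.05), 1 by DESeq2 and 0 by limma-voom (532 at an unadjusted p under 0.05). The difference of the step between genotypes was called for 0 of 15672 genes, with 337 (2.15%) at an unadjusted p under 0.05 by edgeR, 363 by DESeq2 and 322 by limma-voom. From 6-7 to 8-9 somites, fitted with all 21 wt embryos, 0 of 15148 genes were called by edgeR and 1070 (7.06%) had an unadjusted p under 0.05, and the contrast of the second step minus the first was called for 0 genes, with 303 (2%) at an unadjusted p under 0.05 by edgeR, 345 by DESeq2 and 281 by limma-voom. Both steps use the 8-9 somite embryos. By median log2 fold change, the cholesterol genes differed by 0.27 in the first step and 0.28 in the second, Hox groups 5 to 9 by 0.22 and 0.08, and primitive erythroid genes by 2.10 and 0.19. Without wt 10 somites replicate 1 the medians of the second step were 0.16 for Hox groups 5 to 9 and -0.39 for the primitive erythroid genes. Nr6a1 differed by -0.35 ± 0.15 in the first step and -0.51 ± 0.17 in the second, and Hoxd13 by 1.07 ± 0.34 and -0.16 ± 0.30.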

How the data were processed

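Poly(A) RNA of single tailbuds was sequenced, 1 library per embryo, with a stranded or a non-stranded TruSeq kit; which was used for which library is not stated. The authors trimmed reads (Trim Galore 0.4.4), aligned them to GRCm38.p6 (HISAT2 2.0.5) and deposited raw counts per gene from SeqMonk. Counts were not stated to use strand, so overlapping genes are uncertain. The authors also deposited log2 RPKM values of the Hox genes, used here only as levels. A deposited list of the authors' own comparisons (log2 fold changes with raw and corrected p-values) was not used.

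From 35591 lines of the count table, 49 repeats of an identifier were dropped and 26 gene names that had become dates were restored. Groups were taken from genotype and somite number. Genes were kept by filterByExpr (minimum count 10), scaled by TMM and tested with edgeR 4.0.16 in R 4.3.3 (quasi-likelihood test, two-sided, sex as covariate, Benjamini-Hochberg threshold 0.05); alternatives used limma 3.58.1, DESeq2 1.42.0, no filter, a stricter filter, no sex term, females alone, library weights, a replicate block, single stages, a slope per somite and each embryo left out. The 22-embryo slope, the slope fits with an embryo left out, the fits without 2 doubted libraries and the endoderm covariate were added after the data were seen. The fit of the windows and the 22-embryo slope were also run on simulated counts with known changes. There the fit of the windows recovered 43.3% of 1.5-fold and 67.7% of 2-fold changes.

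The text names the 12 genes higher and 12 lower with the smallest p and a mean of at least 1 CPM, members of 32 lists (604 of 607 names found) that were called or led their list, and genes said to be chosen after their values were seen. A few genes are not reported here. The embryos and lists were chosen with earlier results of these data known. No 2 libraries of a stage were alike within sampling noise (chi-square per degree of freedom 7.71 to 72.3 over genes with 20 counts or more). Embryos are separate animals; whether litters were shared is not stated. The labels give same-numbered embryos of different stages no stated link but the number. Their deviations correlated at -0.17 to 0.47 in 18 pairs, 9 of them over 0.1. All pairs of replicate 1 correlated positively, at 0.13 to 0.47. Every wt replicate 1 embryo with 8 to 11 somites was male, both doubted libraries among them. What same-numbered embryos have in common was not tested. Depth limits genes of low count, for which counting error alone is wide.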

Additional observations from a re-analysis of the deposited data

Results flagged for a closer look

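In 162 groups of 6 or 7 wt embryos (81 genes in 2 windows), 13 held an embryo farther from the others than Dixon's limit at 95% allows, and chance alone gives about 1 in 20. Of the 13, 5 were in wt 10 somites replicate 1 and 4 in wt 8 somites replicate 1, the libraries with the most visceral endoderm RNA of their windows.

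Wt 10 somites replicate 1 was low for Nr6a1 (241 CPM, others 397 to 574), Cenpe, a mitotic kinesin (92.3 CPM, others 150 to 179), and Rbbp4, a histone-binding subunit of Polycomb and other complexes (782 CPM, others 942 to 1075). It was high for Tyms, thymidylate synthase (140 CPM, others 110 to 121), and Tnc, the matrix protein tenascin C (9.35 CPM, others 0.547 to 1.64). Wt 8 somites replicate 1 was low for the embryonic globin Hbb-y (4.47 CPM, others 75.7 to 292) and the replication clamp Pcna (297 CPM, others 338 to 359) and high for Fst (23.5 CPM, others 7.79 to 10.5) and Trh (10.4 CPM, others 3.52 to 5.12).

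In the other libraries, Mki67, a proliferation marker, was 610 CPM in wt 8 somites replicate 2 (others 342 to 415), Myc was 49.8 CPM in wt 10 somites replicate 2 (others 37.1 to 40.7), Tbx3 was 17.8 CPM in wt 11 somites replicate 2 (others 32.5 to 47.6) and Wt1 was 0 CPM in wt 10 somites replicate 4 (others 0.338 to 0.897).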

How the results depend on the processing

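The comparison of windows gave 0 called genes under each alternative that kept the 13 wt embryos and their 2 windows, and 0 to 0 when 1 embryo was left out. The same windows in both genotypes without wt 10 somites replicate 1 gave 5 (Acat2, S1pr3, Idh1 and Rassf9 higher, Gas6 lower), and the slope in wt embryos without it 150; over the embryos left out in turn the wt slope gave 0 to 150. Genes at an unadjusted p under 0.05, 471 in the windows, were 880 with no filter, 1096 with the slope, 1463 at 11 against 8 somites, 1311 in 22 embryos, 1931 in 22 embryos without wt 10 somites replicate 1, 1463 with the slope and endoderm covariate, 299 (without wt 8 somites replicate 1) to 817 (without wt 10 somites replicate 1) with 1 embryo left out, and 690 to 1899 for the slope with 1 left out.

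In the slope over 22 embryos, 241 genes were called, against 561 by DESeq2, 158 without sex, 62 in females, 1190 with library weights, 170 without both doubted libraries, 9 with the endoderm covariate, and 65 (without wt 8 somites replicate 1) to 750 (without wt 10 somites replicate 1) with 1 embryo left out. At an unadjusted p under 0.05 it gave 2365, against 3685 with library weights, 1194 with the covariate and 1709 to 3283 with 1 left out. The matdel step gave 1 called gene by DESeq2, and 2140 genes at an unadjusted p under 0.05 with library weights (566 without) and 283 to 1378 with 1 left out. The difference between genotypes gave 772 with no filter, 1003 with library weights and 243 to 785 with 1 left out, and the second minus the first step 804 with no filter, 506 in females and 205 to 546 with 1 left out. The causes of these shifts were not tested.

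With the replicate block, that is the replicate number as a term, the windows gave 0 called and 241 at an unadjusted p under 0.05, and the 22-embryo slope 153 called; 8 of 13 embryos correlated best with their own number. No named gene that was called in the slope changed direction under any alternative run, and of 68 such genes 28 were called without wt 8 somites replicate 1, 38 without wt 11 somites replicate 2, 47 without both doubted libraries, 27 in females and 7 with the endoderm covariate. Has2 and Nkd2 were called in 11 of the 35 alternatives, Wnt9b in 13, Scnn1a in 14, Jakmip2 in 15, Nefl in 16, and Dkk1 and Hoxc10 in 17. Cholesterol genes called ranged from 4 to 20 of 25 and Hox genes of groups 5 to 9 from 1 to 9 of 15. Joining 2 somite numbers in each window, 1 library per embryo and the unequal sexes limit what 13 embryos can show.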
